A study of Caenorhabditis elegans and Caenorhabditis briggsae and Caenorhabditis remanei with 48 samples.

Results

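The ribosome footprint response of *C. briggsae* larvae to feeding was measured over 8524 coding sequences, out of 18793 in the deposited *C. briggsae* table of ribosome-protected fragments (RPF). These were the rows with a mean of at least 50 normalized footprints over both states, and 10269 rows fell below that limit. At the limit itself, the last row inside had a mean of 50.005 with 82.7 in developing and 17.3 in diapause larvae, and the first row outside had 49.987 with 71.4 in developing and 28.6 in diapause larvae. The median log2 change was -0.07 over the 316 rows with a mean of 50 to 55 and -0.22 over the 319 rows with a mean of 45 to 50. Developing animals were whole larvae of strain AF16 that had been starved for 24 h in S-complete liquid medium at 20 C and then given bacteria (*E. coli* HB101, 15 mg/mL) during 3 h. Diapause animals were AF16 larvae frozen after the same 24 h of starvation, without food. Each state had 3 RPF libraries and 3 mRNA-seq libraries of poly(A)-selected RNA, within a series of 48 libraries from 4 species. No gene was altered in either state, and because whole larvae were pooled, a smaller number of cells of a type and less RNA per cell cannot be told apart in any value given here.

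*Caenorhabditis* larvae that hatch without food arrest before post-embryonic growth begins, a state called L1 diapause, and food releases the arrest. In ribosome profiling the stretches of mRNA covered by ribosomes are sequenced, so that the footprints on a coding sequence depend on how much of its mRNA is present and on how densely ribosomes sit on it. The ratio of footprints to mRNA is called translation efficiency (TE). Footprints are relative measures, so a rise of some sequences lowers the share left for others. In *C. elegans*, insulin-like signalling, autophagy and heat shock proteins take part in survival without food, and these groups are described by name.

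The deposited table gives the mean of the 3 libraries of each state, and the reads of single libraries were recovered from those means as whole numbers, for 8507 of the 8524 members in both states. The other 17 members, among the highest values of the table, have state means only and entered no test. Over the rows recovered, libraries held 8728770, 4797481 and 1900996 reads in developing larvae and 7141462, 2301226 and 1763606 reads in diapause larvae. On the log2 scale, libraries correlated across members at 0.964 to 0.979 within the developing state, at 0.916 to 0.958 within diapause, and at 0.467 to 0.597 between states. The first principal component held 88.9% of the variance. The median SD between libraries was 0.173 in developing and 0.206 in diapause larvae, and the shallowest diapause library deviated most from its state, with an SD of 0.361 over members, against 0.246 and 0.308 in the other two. Recovered libraries carry no batch label and are numbered by depth within a state, deepest first.

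Most members changed. Footprints were over 2-fold higher in developing larvae for 2227 of 8524 members (26.1%) and over 2-fold lower for 1439 (16.9%). Over 8-fold changes were found for 284 members upward and 206 downward, and the middle of the distribution, from the lower to the upper quartile, ran from -0.66 to 1.05 on the log2 scale. By limma, a linear model fitted across all rows, at an adjusted p under 0.1, 3671 of 8507 members rose (43.2%) and 2814 fell (33.1%), with a median log2 change of 1.21 among those that rose. The 3 libraries of each state did not overlap for 6410 members (75.3%). Of the rows called, 1090 had changed by less than 1.5-fold, and 30 rows with a change over 2-fold were not called.

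The balance between rises and falls depended on the scale. The median log2 change over members was 0.14 with the authors' size factors. Summed over all rows but the dominant ones, CBP24772, CBP31812 and CBP22608, developing larvae had 1.54 times the normalized footprints of diapause larvae. When each library was instead scaled to its total without those 3 rows, the median log2 change was -0.51, and 2183 members rose while 4584 fell. With libraries centred on their median, 3354 rose and 3192 fell. Changes of single genes are given with the authors' size factors, where this median was 0.14.

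Change followed the level of footprints. Among the 2338 members with a mean of 50 to 100 the median log2 change was -0.06. It was 0.26 at 200 to 500 (2240 members), 0.90 at 1000 to 2000 (414 members), 1.77 at 2000 to 5000 (214 members) and 4.19 at 5000 to 10000 (69 members). Of these last 69 members, 42 (60.9%) were over 8-fold higher in developing larvae, compared with 34 of the 2338 (1.45%) in the lowest class. The mRNA of the same rows moved little across these classes, with a median log2 change of 0.01 in the lowest class and 0.36 at 5000 to 10000. Above 10000, without the 3 dominant rows, the 27 members had a median RPF change of 0.89 and an mRNA change of 0.03. Limma called 58 of 68 members higher and 7 lower at 5000 to 10000, where 43.2% and 33.1% of all members were called. The median SD between libraries there was 0.163 in developing and 0.278 in diapause larvae, small beside the change.

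**Figure D1:**
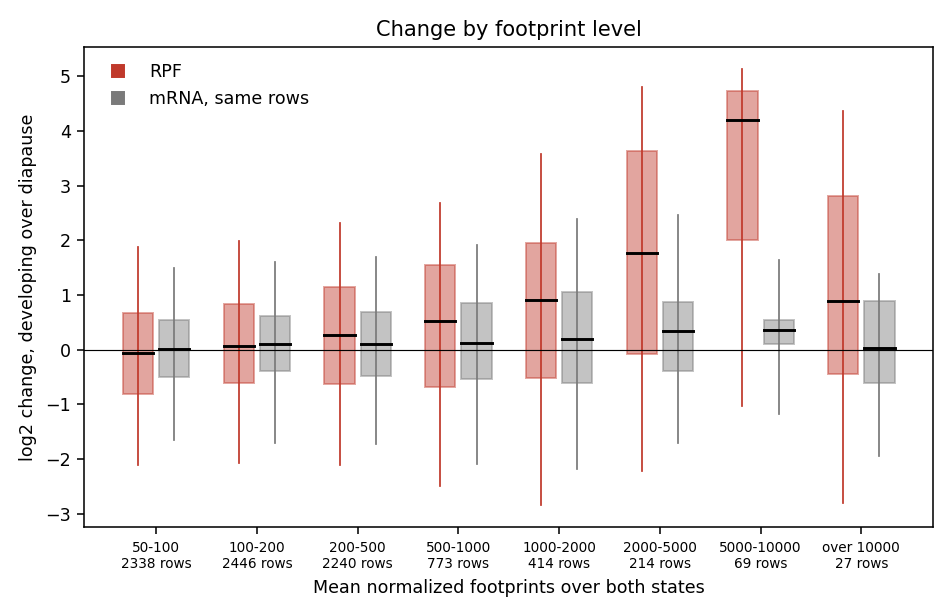
Log2 change of developing over diapause (y axis) for C. briggsae rows in classes of mean normalized footprints over both states (x axis), for RPF (red) and for mRNA of the same rows (grey). Black lines are medians, boxes run from the lower to the upper quartile and thin lines from percentile 5 to percentile 95 of rows; the RPF median is -0.06 in the lowest class and 4.19 at 5000 to 10000, where the mRNA median is 0.36.

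The large rises and the large falls differed in what the mRNA did. Rows with a mean of at least 50 in both assays were compared, using the deposited means and leaving out the dominant rows. Of 283 rows with footprints over 8-fold higher in developing larvae, 137 (48.4%, 95% Wilson interval 42.6 to 54.2) had an mRNA change within 2-fold. Of 203 rows with footprints over 8-fold lower, 5 (2.46%, 1.06 to 5.64) had an mRNA change within 2-fold, and 198 had mRNA over 2-fold lower. The median log2 change of the rows that fell was -3.94 in footprints and -3.09 in mRNA. TE was called lower for 99 of the 201 such rows tested and higher for 0, where 16.4% of all rows tested were called lower, and the TE test shares the RPF libraries that chose these rows. The intervals cover counting of rows only, which are not replicates. With each assay scaled to its total without the dominant rows, the shares were 56.7% of 194 rows for rises and 4.37% of 343 rows for falls.

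The 137 rows with large footprint rises and little mRNA change stood close together. Their median log2 change was 4.39 in footprints, with quartiles of 3.89 and 4.73, and 0.40 in mRNA, with quartiles of 0.19 and 0.54. Their mRNAs were abundant in both states, with a median of 19476 normalized mRNA reads in developing and 14145 in diapause larvae. Their median footprint level was 7250 in developing and 316.8 in diapause larvae. Together they held 22.3% of footprints in developing and 1.68% in diapause larvae, without the dominant rows, while they held 29.9% of mRNA reads in developing and 24.8% in diapause larvae. All 133 of them with recovered reads were called higher and had no overlap between the libraries of the states, which follows in part from choosing them by the size of their change. The TE test could be run for 53 of the 137, and all 53 were called higher in developing larvae, where 19.8% of all rows tested were. Choosing rows by a large RPF rise with little mRNA change sets a large TE rise in advance, so this count is no separate evidence. For the other 84, single mRNA libraries could not be recovered because their mRNA values were too high. No table at hand pairs their identifiers with gene names, so the group is described by its values alone.

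A further 137 rows rose over 8-fold in footprints with an mRNA rise over 2-fold. They had lower levels than the first 137, with a median of 483.6 footprints in developing and 27.11 in diapause larvae, and 587.8 mRNA reads in developing and 71.502 in diapause larvae. Their median log2 change was 3.80 in footprints and 2.96 in mRNA. The TE of 66 of the 136 tested was called higher in developing larvae and that of 0 lower, where 19.8% of all rows tested were called higher, and here too the RPF libraries that chose the rows enter the TE test.

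**Figure D2:**
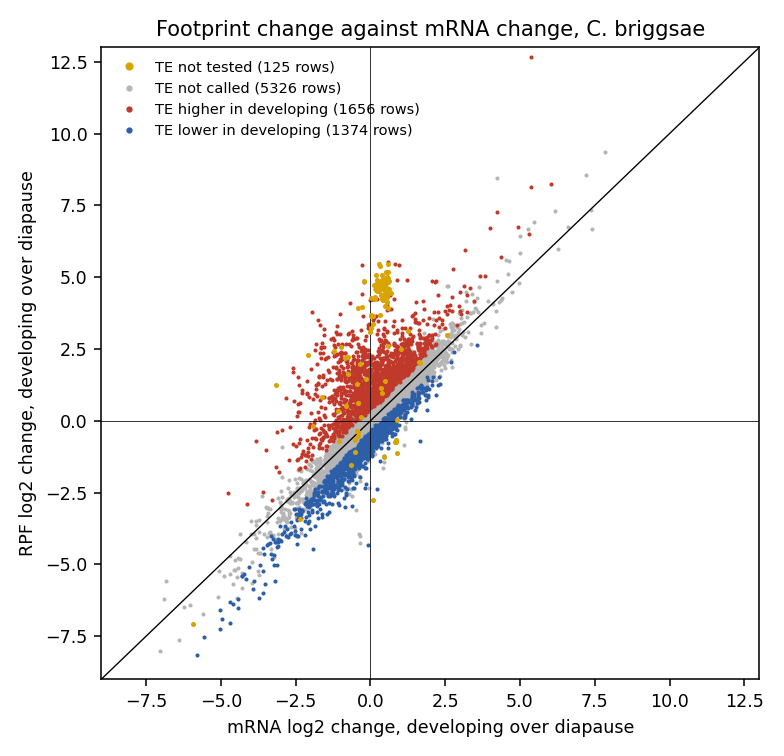
RPF log2 change (y axis) against mRNA log2 change (x axis), developing over diapause, for rows with a mean of at least 50 in both assays; the diagonal marks equal change, and colours mark rows with TE called higher (red), called lower (blue), not called (grey) or not tested (gold). Most gold points sit in a compact group with an RPF change of 4 to 5 and an mRNA change between 0 and 1, and 99 of the 201 tested rows with an over 8-fold fall are blue.

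TE was tested in a fit over all 12 libraries, as the difference between the RPF change and the mRNA change. Of 8357 rows tested, 1656 had higher TE in developing larvae (19.8%) and 1374 had lower TE (16.4%), with a median TE change of -0.09 on the log2 scale. Rows not recovered in both assays were left out. Among them were 84 rows with footprints over 8-fold higher and mRNA within 2-fold, so the counts miss part of the largest rises. Higher TE went with larger changes: 923 rows called higher were over 2-fold and 346 over 4-fold, whereas 253 rows called lower were over 2-fold and 14 over 4-fold. At an adjusted p under 0.01, 1028 rows were higher and 282 lower. Of the 3562 tested rows whose footprints rose, 1446 (40.6%) had higher TE and 95 (2.67%) lower TE. Of the 2799 whose footprints fell, 1076 (38.4%) had lower TE and 74 (2.64%) higher TE. These splits share the RPF libraries with the TE test, so the TE direction is not independent of the footprint direction. The mRNA libraries are separate libraries but come from the same batches of larvae, so the assays are not independent samples of animals. mRNA rose for 2587 (72.6%) and fell for 342 (9.6%) of the rows with risen footprints. Of all rows tested, 38.4% had risen mRNA and 29.5% had fallen mRNA. Among rows with fallen footprints, mRNA fell for 1853 (66.2%) and rose for 44 (1.57%). The scale decides the TE split too. With both assays scaled to totals without the dominant rows, 786 rows were higher and 5479 lower in TE, with a median of -0.76.

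Leaving out the dominant rows, footprints were held by fewer rows in developing larvae. Over recovered rows, the leading 100 rows of each state held 25.7%, 24.2% and 25.9% of footprints in the developing libraries, against 16.2%, 16.9% and 17.1% in the diapause libraries. The libraries of the states did not overlap, and the means of 25.3% ± 0.92 in developing and 16.7% ± 0.49 in diapause larvae (SD, n = 3 each) differed by 8.55 percentage points. An exact two-sided permutation test gave p = 0.1, the smallest that 3 against 3 libraries allow. The leading 1000 rows held 64.4% ± 0.2 in developing and 50.6% ± 0.25 in diapause larvae (exact permutation p = 0.1). The leading 10 rows held 4.22% ± 0.1 in developing and 3.79% ± 0.48 in diapause larvae, and their libraries overlapped (exact permutation p = 0.3). Rows too high to be recovered were left out of these shares. Ranked by their mean over both states, the leading 100 recovered rows differed by 14.6 points (exact permutation p = 0.1). Taken from the state means with the unrecovered rows included, the leading 100 held 30.7% in developing and 25.9% in diapause larvae, but the leading 10 held 9.6% in developing and 12.4% in diapause larvae, so that the order of the states turned for the leading 10.

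**Figure D3:**
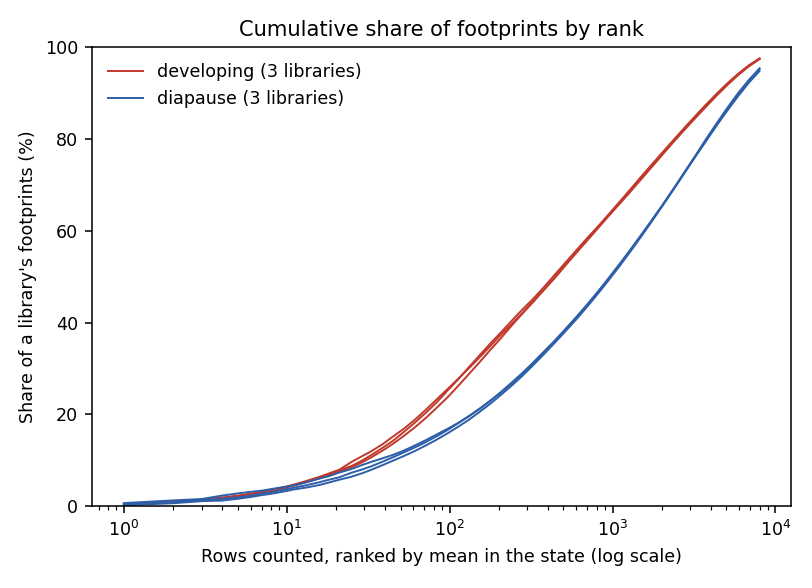
Cumulative share of a library's footprints (y axis, percent) held by the leading rows, ranked by mean within the state (x axis, number of rows, log scale), for 3 developing (red) and 3 diapause (blue) libraries, without the 3 dominant rows and rows that could not be recovered. At each plotted number of rows from 13 on, every developing curve runs above every diapause curve, with 64.4% in developing and 50.6% in diapause libraries on average at 1000 rows.

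The leading rows also exchanged places. Of the 100 highest rows by mean in developing larvae, 24 were among the 100 highest in diapause larvae. The developing leaders had a median rank of 710 in diapause larvae, a median log2 change of 4.08 in footprints and of 0.39 in mRNA. They held 30.7% of footprints in developing and 16% in diapause larvae. The diapause leaders had a median rank of 324 in developing larvae and a median log2 change of -0.91 in footprints and -0.60 in mRNA. They held 14.3% of footprints in developing and 25.9% in diapause larvae. Among the 1000 highest rows of each state, 503 were shared. Rows ranked by a state's own values lean toward that state by construction, and these counts are given without a test.

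With the authors' size factors, the 3 dominant rows went the other way from the median. With libraries scaled to their total without these rows, the median log2 change of members was itself below 0, at -0.51. CBP24772 had a mean of 1035969 footprints in developing and 1716082 in diapause larvae, a log2 change of -0.73. CBP31812 had 1485681 in developing and 2370405 in diapause larvae (-0.67), and CBP22608 had 1252319 in developing and 2095392 in diapause larvae (-0.74). Together they took 42.9% of all normalized footprints in developing and 65.5% in diapause larvae. Their mRNA was higher in developing larvae, with log2 changes of 0.82, 0.85 and 0.86, so the footprint change less the mRNA change lay between -1.60 and -1.52. Single libraries could not be recovered for these rows, so none of this was tested, and with changes this alike, whether the rows share sequence or reads could not be checked. When they are kept in the sums, the leading 100 rows held 60.2% in developing and 74.3% in diapause larvae.

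Named genes were those of a table in which the study collected genes of interest, and 26 of its 27 genes could be tied to a member. The study chose them because their footprints changed in these samples, so their directions are not independent evidence. By limma 9 of the 26 rose and 16 fell, where 43.2% of all members rose and 33.1% fell, and their median log2 change was -1.23 where that of all members was 0.14. The libraries of the states did not overlap for 25, where they did not for 75.3% of all members. All 25 calls kept their direction and their side of the threshold with each library left out in turn and under each scaling tried, and the adjusted p-values of limma are given for each gene. Gene roles are those known in *C. elegans*.

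Chaperones that fold newly made proteins rose, 6 of 6, where 43.2% of all members rose. *hsp-1*, a cytosolic HSP70, had 20883, 21217 and 17353 normalized footprints in developing larvae, against 2529, 2632 and 2342 in diapause larvae. Its log2 change was 2.98 ± 0.18 (SE, adjusted p = 2e-06), and it ranked 11 among rows in developing and 119 in diapause larvae. *daf-21*, which codes for HSP90, had 14019, 14688 and 12109 footprints in developing larvae, against 1786, 2159 and 1794 in diapause larvae. Each developing library lay several-fold above every diapause library for both genes, with a log2 change of 2.83 ± 0.17 for *daf-21* (adjusted p = 2.3e-06). Its mRNA rose by 1.27 and its TE by 1.56 ± 0.25 (TE adjusted p = 0.00038). Single mRNA libraries could not be recovered for *hsp-1*, whose mRNA change from the means was 2.55.

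The chaperones of the endoplasmic reticulum, *hsp-3* and *hsp-4*, both of the BiP kind, rose without a called change in TE. *hsp-3* had 8711, 10763 and 9755 footprints in developing larvae, against 893, 1114 and 1006 in diapause larvae, a log2 change of 3.28 ± 0.16 (adjusted p = 8.6e-07). *hsp-4* had 2184, 2225 and 2206 footprints in developing larvae, against 552, 797 and 675 in diapause larvae, a log2 change of 1.72 ± 0.16 (adjusted p = 2.1e-05). Neither gene had overlapping states. The mRNA log2 changes were 2.91 for *hsp-3* and 1.86 for *hsp-4*, and the TE changes were 0.37 ± 0.21 (adjusted p = 0.2) and -0.13 ± 0.24 (adjusted p = 0.7). On the scale of totals without the dominant rows, the TE change of *hsp-3* was -0.31 (adjusted p = 0.15), and that of *hsp-4* was -0.82 and passed the threshold (adjusted p = 0.008). Reads with several genomic positions had been dropped, so parts shared with near copies of these genes do not count.

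Both mitochondrial chaperones rose in footprints and in TE. *hsp-60*, the mitochondrial chaperonin, had 5309, 5672 and 4435 footprints in developing larvae, against 752, 795 and 577 in diapause larvae, a log2 change of 2.86 ± 0.17 (adjusted p = 2.3e-06). Its mRNA had 4897, 4501 and 3972 normalized reads in developing larvae, against 6566, 5853 and 7183 in diapause larvae, and fell by 0.55 on the log2 scale (adjusted p = 0.0087). Footprints were higher and mRNA was lower in every developing library than in any diapause library, and the TE change was 3.42 ± 0.23 (adjusted p = 1.3e-07). *hsp-6*, the mitochondrial HSP70, had 5488, 5884 and 4841 footprints in developing larvae, against 1275, 1067 and 1040 in diapause larvae, a log2 change of 2.26 ± 0.15 (adjusted p = 4.4e-06). Its mRNA rose by 1.26, and its TE rose by 1.00 ± 0.20 (adjusted p = 0.0026). On the scale of totals without the dominant rows the TE change of *hsp-6* was 0.32 and did not pass the threshold (adjusted p = 0.12).

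The autophagy genes fell, 4 of 4, where 33.1% of all members fell, with a median log2 change of -2.27. *lgg-1*, the ubiquitin-like protein that coats autophagosome membranes, had 667, 627 and 523 footprints in developing larvae, against 6306, 6325 and 7668 in diapause larvae. It went down 11.2-fold by the means, with a log2 change of -3.48 ± 0.16 (adjusted p = 6.3e-07), and it ranked 1357 in developing and 26 in diapause larvae. Its mRNA log2 change was -2.17 and its TE change was -1.31 ± 0.20 (adjusted p = 0.00026). *atg-18*, a lipid-binding protein of autophagosome formation, had 145, 153 and 210 footprints in developing larvae, against 1139, 1008 and 1453 in diapause larvae (log2 change -2.82 ± 0.19, adjusted p = 4e-06). *unc-51*, the kinase that starts autophagy, had 448, 435 and 467 footprints in developing larvae, against 1428, 1242 and 1790 in diapause larvae (log2 change -1.71 ± 0.15, adjusted p = 2e-05). No developing library reached a diapause library for any of these. *atg-3*, an enzyme that helps attach LGG-1 to lipid, had 164, 147 and 170 footprints in developing larvae, against 455, 500 and 558 in diapause larvae (log2 change -1.64 ± 0.13, adjusted p = 9.4e-06). TE was called lower for all 4, at -0.71 for *unc-51*, -0.67 for *atg-18* and -0.59 for *atg-3*. Of all rows tested, 16.4% were called lower, and of the tested rows with fallen footprints, 38.4%. The RPF libraries that gave the falls enter the TE test, so this count is no separate evidence. The *atg-18* call was lost without developing library 1, developing library 2 or diapause library 3, with an adjusted p of up to 0.12.

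Of the 9 genes of insulin-like signalling and dauer formation, 7 fell and 2 rose, where 33.1% of all members fell and 43.2% rose. *akt-1*, a kinase of the insulin pathway, had 278, 211 and 198 footprints in developing larvae, against 2260, 2046 and 2126 in diapause larvae, a log2 change of -3.24 ± 0.15 (adjusted p = 7.4e-07). Its mRNA change was -2.92, and the TE change of -0.31 ± 0.21 was not called (adjusted p = 0.29). *daf-16*, the FOXO transcription factor that the pathway restrains, had 511, 492 and 500 footprints in developing larvae, against 2108, 1713 and 2591 in diapause larvae, a log2 change of -2.07 ± 0.16 (adjusted p = 9.7e-06). The developing libraries of *daf-16* lay close to each other, with an SD of 9.68, while the diapause libraries had an SD of 440. *mfb-1*, an F-box protein, had 62.6, 51.5 and 64.5 footprints in developing larvae, against 357, 273 and 503 in diapause larvae (log2 change -2.61 ± 0.22, adjusted p = 1.4e-05). *kin-29*, a kinase of the salt-inducible family, had 130, 125 and 131 footprints in developing larvae, against 281, 301 and 286 in diapause larvae (log2 change -1.16 ± 0.11, adjusted p = 3.2e-05). The states of these genes did not overlap.

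The other genes that fell were *daf-15*, *lite-1* and T19F4.1. *daf-15*, the raptor subunit of the TOR complex, had 195, 244 and 253 footprints in developing larvae, against 372, 389 and 472 in diapause larvae (log2 change -0.83 ± 0.15, adjusted p = 0.0012). The light receptor gene *lite-1* changed by -1.68 ± 0.20 (adjusted p = 9.3e-05), with 32.4 to 36.8 footprints in developing and 95.4 to 126 in diapause larvae, and T19F4.1 by -1.40 ± 0.24 (adjusted p = 0.00079). The genes that rose were *daf-3*, a SMAD of the dauer pathway, with 118, 128 and 120 footprints in developing larvae, against 54.1, 47 and 56.2 in diapause larvae (log2 change 1.21 ± 0.16, adjusted p = 0.00018), and *odr-4*. *odr-4*, which helps chemosensory receptors reach the cilium, had 352, 299 and 332 footprints in developing larvae, against 172, 159 and 183 in diapause larvae (log2 change 0.93 ± 0.13, adjusted p = 0.00021). Their mRNA log2 changes were 1.05 for *daf-3* and 1.07 for *odr-4*, and neither TE change was called (0.15 and -0.14, adjusted p = 0.77 and 0.5). TE was called lower for 3 of the 9 genes: *daf-16* (-0.72), *kin-29* (-0.43) and *lite-1* (-0.70), with adjusted p-values of 0.088, 0.091 and 0.086. Of all rows tested, 16.4% were called lower, and of the tested rows with fallen footprints, 38.4%. The *daf-16* call was lost without any single library other than diapause library 2 (adjusted p up to 0.17). The *kin-29* call was lost with any library left out (up to 0.15). The *lite-1* call was lost without developing library 1 or 2 or diapause library 1 or 3 (up to 0.16). On the scale of totals without the dominant rows, *daf-16* stayed called (-1.41, adjusted p = 0.00087). TE was also called lower there for *daf-15* (-0.89), *mfb-1* (-1.26) and T19F4.1 (-1.13), with adjusted p-values of 0.0036, 0.0064 and 0.0073. On that scale 5479 of 8357 rows tested were called lower.

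The small heat shock proteins, which bind unfolded proteins, did not move together. *hsp-12.6* had 1.06, 2.86 and 4.61 footprints in developing larvae, against 125, 94.1 and 217 in diapause larvae, from 7 reads in all in developing and 525 in diapause larvae. The ratio of summed reads was 0.0156, with a 95% exact interval for counting error of 0.00625 to 0.0324, and limma gave an adjusted p of 8.6e-05. *hsp-12.3* had 14.3, 44.8 and 13.8 footprints in developing larvae, against 310, 422 and 246 in diapause larvae (log2 change -3.87 ± 0.43, adjusted p = 6.5e-05). *hsp-43* fell less, with 211, 184 and 205 footprints in developing larvae, against 453, 451 and 577 in diapause larvae (log2 change -1.29 ± 0.14, adjusted p = 6e-05). In contrast, *hsp-17* had 497, 545 and 458 footprints in developing larvae, against 62.7, 81.4 and 98 in diapause larvae, a log2 change of 2.64 ± 0.18 (adjusted p = 3.8e-06). The *hsp-17* mRNA rose by more, 3.58, so its TE change was -0.94 ± 0.31 (adjusted p = 0.036). TE was also called lower for *hsp-43* (-0.93 ± 0.20, adjusted p = 0.0036) and *hsp-12.6* (-1.76 ± 0.69, adjusted p = 0.074). The *hsp-12.6* call was lost without developing library 1, diapause library 1 or diapause library 3, with an adjusted p of up to 0.18.

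*sod-4*, an extracellular superoxide dismutase, fell to 95.5, 68.7 and 66.8 footprints in developing larvae, against 396, 361 and 448 in diapause larvae (log2 change -2.38 ± 0.17, adjusted p = 5.5e-06). Its TE changed by -0.91 ± 0.21 (adjusted p = 0.0057). *sod-1*, a cytosolic superoxide dismutase, was the only named gene with overlapping states. It had 1042, 904 and 691 footprints in developing larvae, against 982, 1357 and 617 in diapause larvae, a log2 change of -0.11 ± 0.28 (adjusted p = 0.73). On the scale of totals without the dominant rows it was -0.77 and passed the threshold (adjusted p = 0.026). *nhr-49*, a nuclear receptor that controls fat use, had 691, 595 and 730 footprints in developing larvae, against 1179, 1072 and 1419 in diapause larvae (log2 change -0.86 ± 0.15, adjusted p = 0.00099). Its mRNA changed by -0.54, and its TE change of -0.32 ± 0.22 was not called (adjusted p = 0.3).

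**Figure D4:**
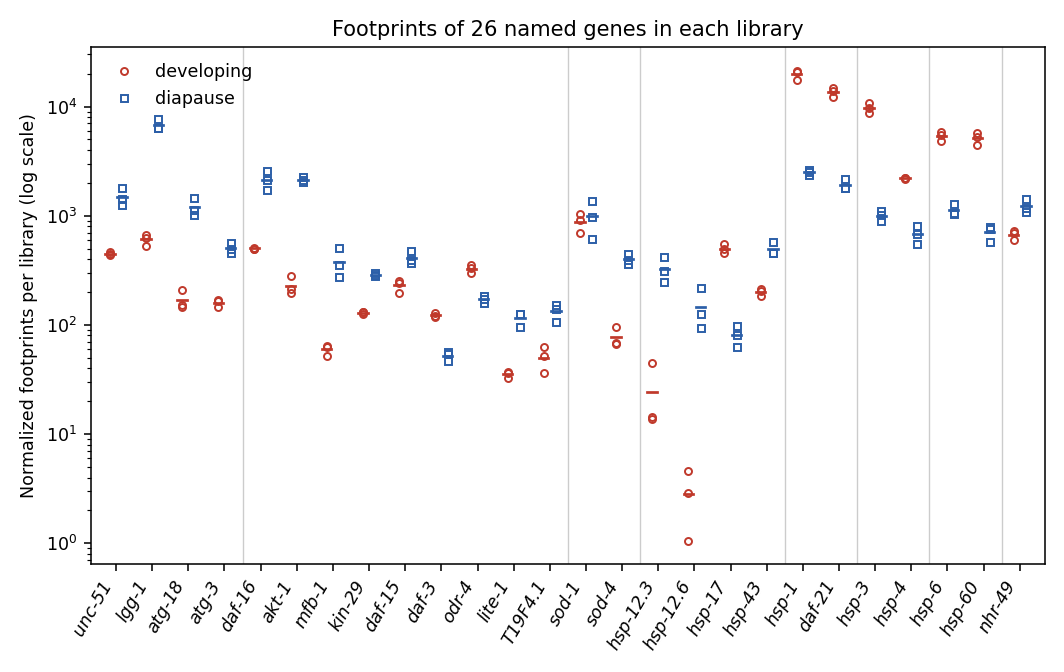
Normalized footprints per library (y axis, log scale) of 26 named genes (x axis), with developing libraries as red circles left of diapause libraries as blue squares, short lines at the mean of 3 libraries and grey lines between gene groups. The 6 chaperones from hsp-1 to hsp-60 are higher in every developing library, the 4 autophagy genes are lower in every developing library, and only sod-1 overlaps.

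The largest changes among called rows without overlap went further. CBP36615 had 6002, 1340 and 311 reads in developing larvae, against 2, 0 and 0 reads in diapause larvae. The ratio of summed reads was 4480, with a 95% exact interval for counting error of 1240 to 37000, and the normalized values of 3184, 1278 and 716 in developing larvae spread widely. Its mRNA had 1364, 3606 and 793 normalized reads in developing larvae, and 38.5, 47.7 and 54.1 in diapause larvae, where it was thus measurable while its footprints were near 0. The TE change was 5.14 ± 0.76 (adjusted p = 0.00021). The RPF libraries that chose this row enter its TE test, and its diapause footprints rest on 2 reads. CBP07464 had 5356, 1746 and 1028 reads in developing larvae, against 7, 6 and 0 in diapause larvae, a ratio of 732 (428 to 1380). Its mRNA rose by 7.68 and its footprints by 9.45 on the log2 scale. The TE change of 1.77 ± 0.81 did not pass the threshold (adjusted p = 0.12). It passed without diapause library 2 (adjusted p = 0.011), with a pseudocount of 5 (adjusted p = 0.075) and with array weights per group (adjusted p = 0.079). Under every other alternative it did not pass, with an adjusted p of up to 0.22 on the scale of totals without the dominant rows.

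The largest falls were CBP04393 and CBP30964. CBP04393, which ranked 16 in diapause larvae, had 32.9, 70.6 and 18.4 footprints in developing larvae, against 11300, 13065 and 6835 in diapause larvae, 256-fold lower by the means (log2 change -8.12 ± 0.44, adjusted p = 1.2e-06). Its mRNA changed by -7.00, and TE was not called (-1.11 ± 0.62, adjusted p = 0.2). It was called without developing library 2 (adjusted p = 0.045) and on the scale of totals without the dominant rows (adjusted p = 0.021). Under every other alternative it was not, with an adjusted p of up to 0.41 without developing library 3. CBP30964 had 5, 2 and 0 reads in developing larvae, against 1290, 376 and 193 in diapause larvae, a ratio of summed reads of 0.00441 (0.00177 to 0.0091). Its mRNA changed by -5.57, and its TE was called lower (-2.02 ± 0.62, adjusted p = 0.027), also with each library left out (adjusted p up to 0.074). Here too the RPF libraries that chose the rows enter their TE tests. Only 1 member had no read in any diapause library, where the count of 0, read as at most 3 reads over the 3 libraries, makes it at least 207-fold higher in developing larvae. No member was without reads in developing larvae.

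**Figure D5:**
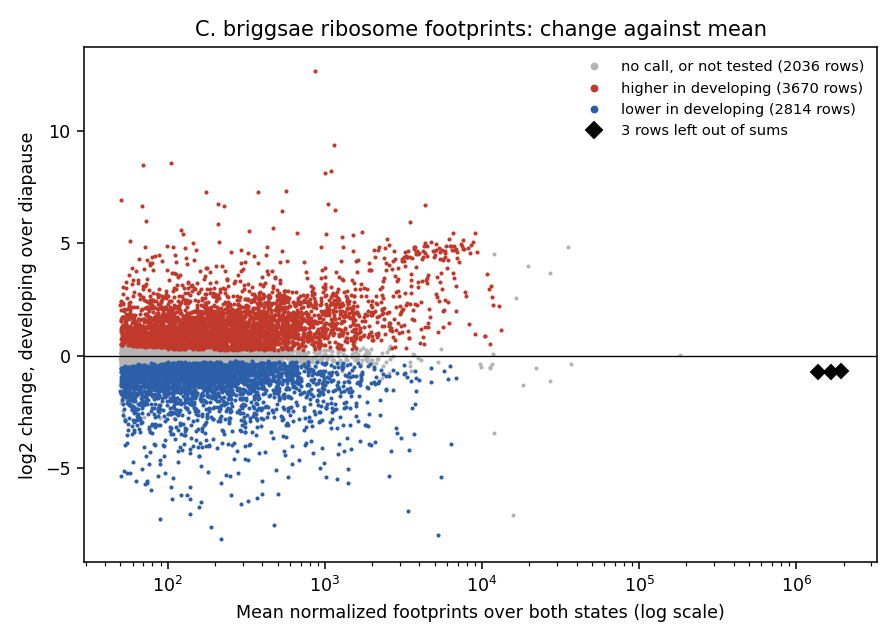
Log2 change of developing over diapause (y axis) against mean normalized footprints over both states (x axis, log scale) for C. briggsae rows with a mean of at least 50, coloured by limma call, with the 3 dominant rows as diamonds. A group of rows between 2000 and 10000 lies at a change of 4 to 5, and the dominant rows lie between -0.74 and -0.67; the row without diapause reads is not drawn.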

How the data were processed

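After adaptor removal, the authors aligned reads with Bowtie 0.12.7 to the WS230 genome and to its coding sequences. Reads with a single genomic position were kept and added up for each coding sequence, so that a read can count for several isoforms, and 12 members shared all their reads with another member. The signal columns used here are the means the authors deposited, over the 3 libraries of a state, of reads divided by DESeq size factors. The deposited fold changes, p-values and variance ratios of the authors' own comparison were not used. Each mean is a sum of whole read numbers times 3 fixed steps, and an integer search recovered the reads of single libraries for 18783 of 18793 RPF values in developing and 18781 in diapause larvae. No value was without a solution, and 0 of 500 values with altered digits had one in either state. Size factors computed from the recovered reads differed from the steps by at most 0.0689% in RPF data. mRNA reads were recovered in the same way, for all but 103 of 20908 values in developing and 107 in diapause larvae. Their recomputed size factors differed from the steps by at most 0.406%.

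Recovered reads were divided by the size factors, and log2(value + 1) was tested with limma 3.58.1 (R 4.3.3, trend, two-sided, Benjamini-Hochberg over all rows tested). TE used the same model over 12 libraries with 4 groups. The scripts were tested on simulated data. The authors describe full biological replicates, in which fed and starved larvae of a replicate came from the same batch; the fits do not use this pairing, since recovered libraries carry no batch. Fold changes on this scale understate the change of low rows. Depth per library is given with the results, and intervals cover counting error only.

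The design had named lists of gene families by symbol, but 0 of the 18793 identifiers were found in 2 reference tables of gene names, so those lists were not analysed here. Genes named are the 26 of the study's table of genes of interest whose listed changes in both assays match 1 row of both tables within 2e-05 (the study's list gives the protein of 1 row as *daf-2*, another of its tables gives it as *daf-21*, and *daf-21*, the HSP90 gene, is used here), the 2 largest rises and 2 largest falls among called rows without overlap, and the 3 dominant rows. The members, lists and tests were chosen with earlier results of these data known. Alternatives covered the minimum mean, pseudocount, scaling, voom, thresholds and each library left out, and some were chosen after seeing the data.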

Additional observations from a re-analysis of the deposited data

How the results depend on the processing

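Counts of RPF calls stayed within 1.5 times of 6485 under every alternative tried, from 4978 at an adjusted p under 0.01 to 8704 with no minimum mean, and from 6022 to 6460 with each library left out. The split of the calls moved more: 56.6% were higher in developing larvae, but 32.3% with libraries scaled to their total without the dominant rows, and 49.8% with no minimum. TE calls numbered 1310 at an adjusted p under 0.01 and 6265 on that scale of totals, chosen after seeing the data, against 3030, and 2764 to 3230 with each library left out. The share of members over 2-fold was 43%, but 52.9% with no minimum, counting rows with reads in only 1 state as changed, and 41.3% with 5 added to both means, and 40.8% to 45.2% with each library left out. The difference in the share of the leading 100 rows was 8.55 points, 8.26 to 9.11 with each library left out, and 14.6 with rows ranked by their mean over both states. From the state means it was 4.74 points without the dominant rows (chosen after seeing the data) and -14.2 with them. Of 450 RPF values of named genes under alternatives, 447 kept direction and side of the threshold. The exceptions were all *sod-1*: 0.05 without developing library 3 and 0.15 without diapause library 2, in a range of -0.41 to 0.15 with each library left out, and -0.77 on the scale of totals. Of 348 TE values, 299 were unchanged in call, and those of *hsp-3* (-0.31) and *daf-3* (-0.52) turned negative on the scale of totals. No paired analysis was possible because the recovered libraries carry no batch number. The labels give batch numbers shared by both states, so all tests treat as unpaired what were batches split between states. Dominant and other very high rows could not be tested per library.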

Other observations

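Replicate spread was not even across members. An SD over 1 between libraries on the log2 scale was found for 95 members in developing and for 144 members in diapause larvae, and 58.1% of 8507 members had the larger SD in diapause larvae. Among the 14 members other than the dominant rows whose reads could not be recovered, 5 were over 2-fold higher and 4 over 2-fold lower in developing larvae by the deposited means, with log2 changes from -7.07 to 4.86.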
